A study of Homo sapiens with 29 samples.

Results

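The genes described here are 15 of the 6529 genes tested, those whose symbol begins with SLC, a family number and A, or with SLCO, and whose log2 value lay above 5 on at least 2 arrays. Of 34 such symbols in the array's probe table, 19 lay below that level. Each of the 15 genes had 1 probe set. They were chosen by level over all arrays, not by their response to treatment. Each passed the level on arrays of both arms. At the edge, SLC49A3 passed on 2 arrays, 1 of each arm (its highest value was 5.07), and SLC61A1 missed the rule with 1 array above 5 (5.38).

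HepG2, a human hepatoblastoma-derived cell line in wide use, was treated with CCL, by the series title the herb Cratoxylum cochinchinense Lour, or left untreated, and RNA was measured on 29 Affymetrix arrays. CCL-treated cells were sampled at 6, 12 and 18 h with 3 arrays each and at 24 and 48 h with 2 each. Untreated cells were sampled at 0 and 18 h with 2 arrays each and at 6, 12, 24 and 48 h with 3 each. The labels number arrays as sets 1 to 3, give no dose and name no vehicle, so effects of CCL and of a solvent cannot be told apart, and they do not state whether replicate arrays stand for separate cultures.

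Solute carriers are membrane proteins that move nutrients, ions, metabolites and drugs across the plasma membrane and the membranes of organelles, either down a gradient or coupled to the movement of another ion or solute. The liver relies on them for the uptake of amino acids, sugars and bile acids and for the export of finished products. Those in mitochondria link the urea cycle to the cytosol, and those of lysosomes return the products of protein breakdown. Many carriers were first known under other names and were given SLC numbers late.

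RefSeq holds 364 protein-coding genes whose symbols match the rule, and 19 of them had a named probe set. Why the others lack one in the probe table was not tested. Most of these 19 carry recent SLC numbers, such as SLC71A1, formerly MFSD14A, or SLC66A1, formerly PQLC2. The glucose carrier gene SLC2A1, the amino acid carrier genes SLC7A5 and SLC1A5, the cystine carrier gene SLC7A11 and the bile acid carrier gene SLC10A1 lacked a named probe set and are not analysed here. Of the 15 genes, 13 encode carriers or relatives of carriers. SLC2A4RG encodes a transcription factor named after the glucose carrier gene it binds, and SLC9A3-OT1 is a long non-coding RNA gene named after its place beside SLC9A3. The label of solute carriers thus fits 13 of the 15. The counts, shares and medians below are over all 15, with the other 2 included.

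Values are log2 expression per probe set, and a difference is CCL minus untreated cells on that scale. A gene is called where limma's two-sided p, adjusted by Benjamini and Hochberg over all 6529 genes, was under 0.05. With so few arrays per group the precision of each value is limited. The median log2 value of an array ran from 2.29 to 3.39, with 17 of 29 arrays between 2.9 and 3.1. At 18 h the median difference of all genes was 0.41, and at 48 h it was -0.26. At the other times it lay between -0.06 and 0.04, and after quantile normalization, which makes the distributions of all arrays equal, between -0.05 and 0.00 at the 5 times. Over all genes 803 were called higher and 12 lower at 18 h, against 224 and 114 after quantile normalization. The hepatocyte markers ALB, AFP, TTR, APOA1, APOB, TF, FGB and FGG had log2 values of 6.57 or more on every array, 8 of the 9 on the list having a named probe set. Of markers of other cells, CD14 (1 of 3 for leukocytes) ran from 2.42 to 4.72 with CCL and from 2.35 to 3.32 without. PECAM1 and VWF (2 of 3 for endothelium) did not pass 3.57 on any array, and 0 of 4 fibroblast markers had a named probe set.

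Averaged over the 5 times, 1 gene of the group rose with CCL and 2 fell. SLC66A1, whose protein exports lysine, arginine and other cationic amino acids from lysosomes, had a mean difference of 0.76 ± 0.11, or 1.69-fold (SE, 13 CCL and 14 untreated arrays, limma adjusted p = 1.62e-05). SLC2A4RG, which encodes a transcription factor and not a carrier, fell by 0.70 ± 0.15 (limma adjusted p = 0.00153). SLC60A2, whose rat counterpart carries glucose together with sodium in the kidney, fell by 0.59 ± 0.18 (adjusted p = 0.0208). These 3 of 15 make 20% of the group, against 24.6% of all genes called in this mean, a share close to that of genes at large. Its median was -0.03, and that of all genes was 0.01.

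**Figure D1:**
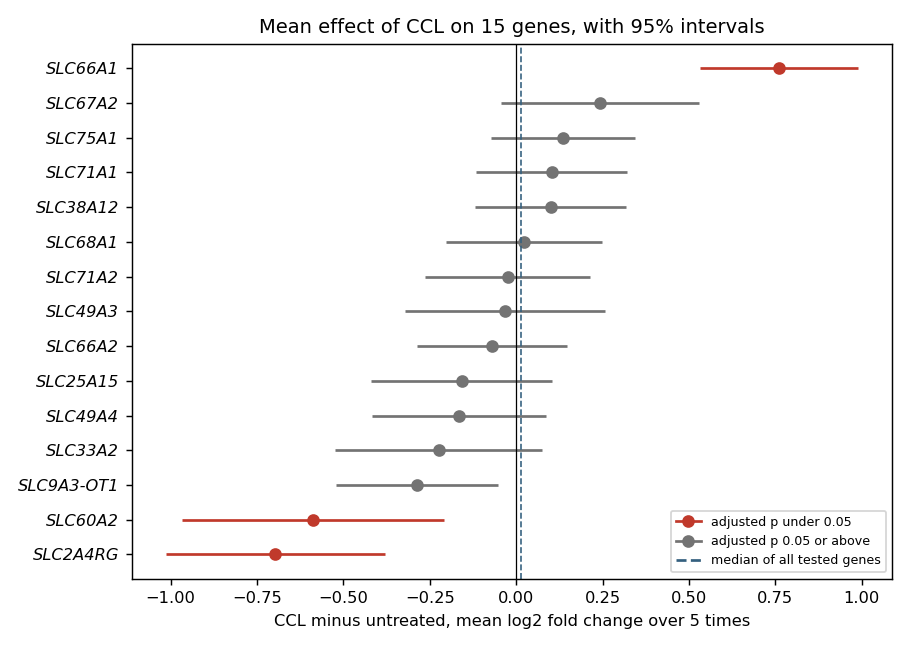
Mean log2 fold change over 5 times, CCL minus untreated, for each of the 15 genes (points) with 95% intervals from limma (lines); red marks an adjusted p under 0.05 and the dashed line the median of all tested genes. SLC66A1 stands at 0.76, SLC60A2 at -0.59 and SLC2A4RG at -0.70, and the intervals of the others, SLC9A3-OT1 apart, reach across 0.

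The stretches upstream of these 3 genes are shown because they are the members that moved in the mean. They are the 120 bases before the transcription start in RefSeq's promoter table (GRCh38.p14, plus strand, 5′ to 3′), which held 13 of the 15 genes. Capitals mark TGACNNNGC, the core of the antioxidant response element, on either strand, and the E-box CACGTG. The stretch of SLC66A1 lies at chr1:19312206-19312325, that of SLC60A2 at chr6:111259219-111259338 and that of SLC2A4RG at chr20:63739656-63739775.
SLC66A1: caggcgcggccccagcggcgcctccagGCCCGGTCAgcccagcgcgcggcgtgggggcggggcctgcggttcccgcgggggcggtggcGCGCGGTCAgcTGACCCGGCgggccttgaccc
SLC60A2: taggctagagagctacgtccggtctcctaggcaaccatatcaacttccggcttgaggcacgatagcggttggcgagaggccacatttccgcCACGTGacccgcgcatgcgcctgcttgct
SLC2A4RG: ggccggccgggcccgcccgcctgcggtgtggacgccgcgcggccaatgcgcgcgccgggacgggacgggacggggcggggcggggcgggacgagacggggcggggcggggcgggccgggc

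The stretch of SLC66A1 held 3 matches to TGACNNNGC, their leftmost bases at -93, -32 and -21 from the start, the last on the plus strand and the others on the minus strand. Over the full window of 300 bases (250 before the start and 50 after it), 4 of the 13 promoters held this core, those of SLC66A1, SLC68A1, SLC71A2 and SLC9A3-OT1, against 13.6% of 27305 promoters. The E-box was found in 1 of the 13, that of SLC60A2, its first base at -29, against 7.43% of all promoters. TGATGNAA, the core of the amino acid response element, was found in 0 of the 13, against 3.67% of all. The shorter core ACGTG of the hypoxia response element, which the E-box contains, was in 5 of the 13 (21.6% of all). TGCNCNC, a pattern looser than the core of the metal response element, was in 9 of the 13 (55.2% of all). All motifs were sought on both strands, and a match of letters is a description only. The stretch of SLC2A4RG is 89.2% G and C, that of SLC66A1 84.2% and that of SLC60A2 60%.

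The values of SLC66A1 on every array are given by time. Limma's F-test, given below, did not call a difference in its CCL effect between times (adjusted p = 0.45). At 6 h SLC66A1 read 5.98, 6.08 and 6.01 with CCL in sets 1, 2 and 3, against 6.63, 5.97 and 5.84 in untreated cells. The groups overlapped, and the difference was -0.12 ± 0.23 (SE, 3 arrays per arm). By 12 h the values were 6.47, 6.67 and 6.43 with CCL and 6.10, 6.07 and 5.40 without. All CCL arrays then lay above all untreated arrays, but the difference of 0.67 ± 0.23 was not called (adjusted p = 0.194). Groups did not overlap for 33.2% of all genes at 12 h.

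At 18 h SLC66A1 reached 6.92, 6.99 and 7.28 with CCL, against 5.71 and 6.05 in untreated sets 1 and 3. The difference of 1.19 ± 0.26, or 2.28-fold, was called by limma (adjusted p = 0.00456, 3 CCL and 2 untreated arrays). At 24 h it read 7.40 and 6.79 with CCL and 5.64, 5.85 and 5.84 without, the groups again apart. The difference was 1.32 ± 0.26, or 2.49-fold (limma adjusted p = 0.00487, 2 CCL and 3 untreated arrays). At 48 h the CCL arrays gave 6.36 and 7.04 and the untreated arrays 5.90, 6.03 and 5.93, a difference of 0.75 ± 0.26 that was not called (adjusted p = 0.0772). It was called after quantile normalization (1.01, adjusted p = 0.0101). From 12 h to 48 h, the 10 CCL arrays lay between 6.36 and 7.40 and the 11 untreated arrays between 5.40 and 6.10. With 6 h included the arms overlapped, at 5.98 to 7.40 with CCL and 5.40 to 6.63 without.

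The call of SLC66A1 at 18 h rests on untreated set 1, whose array median, 2.29, was the lowest. Without it the difference was 1.02 (adjusted p = 0.221), and after quantile normalization it was 0.80 (adjusted p = 0.0529). At 24 h the call was lost without CCL set 1 (1.01, adjusted p = 0.245). The mean over the 5 times did not depend on any of these arrays. With each of the 27 arrays left out in turn it lay between 0.69 and 0.83, with an adjusted p of at most 9.85e-05.

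**Figure D2:**
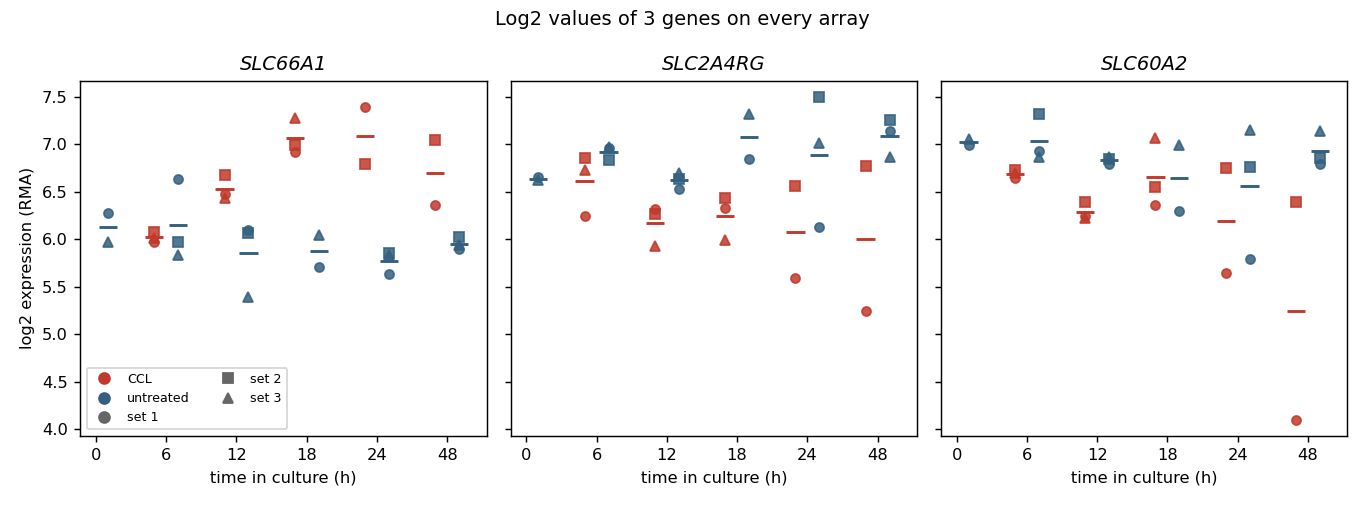
Log2 values of the 3 genes called in the mean over 5 times, on every array, by time in culture; red is CCL, blue is untreated, marker shapes are sets 1 to 3 and short bars are group means. SLC66A1 with CCL lies above untreated from 12 h on, SLC2A4RG with CCL lies mostly below, and SLC60A2 with CCL at 48 h holds 1 array at 4.10 and another at 6.40.

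SLC2A4RG was lower with CCL at each of the 5 times. The model of all arrays without a term for set called it at no single time on deposited values. Fits with set as a replicate block are given below. At 18 h the values of SLC2A4RG were 6.32, 6.43 and 5.99 with CCL, against 6.84 and 7.32 in untreated cells, without overlap. The difference of -0.83 ± 0.36 was not called (adjusted p = 0.113), but it was after quantile normalization (-1.25, adjusted p = 0.0144), which removes the shift of all genes at that time. At 48 h it read 5.24 and 6.77 with CCL and 7.14, 7.26 and 6.86 without, again without overlap (difference -1.08 ± 0.36, adjusted p = 0.0668). The 5.24 came from CCL set 1, the array that also gave SLC60A2 its lowest value, 4.10. Its array median was 2.75, against 2.96 for CCL set 2. Within sets SLC2A4RG differed by -1.90 in set 1 and -0.49 in set 2 at 48 h.

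At 12 h the CCL arrays of SLC2A4RG gave 6.32, 6.27 and 5.93, all below the untreated arrays at 6.53, 6.64 and 6.70 (-0.45 ± 0.32). At 6 h the values were 6.24, 6.86 and 6.73 with CCL and 6.96, 6.83 and 6.97 without. At 24 h they were 5.59 and 6.56 with CCL and 6.13, 7.50 and 7.02 without, so the groups overlapped at both of these times. The mean over the 5 times kept its call without any single array (-0.85 to -0.54, adjusted p of at most 0.008). Over all, the 13 CCL arrays ran from 5.24 to 6.86 with a median of 6.32, and the 14 untreated arrays of 6 h to 48 h from 6.13 to 7.50 with a median of 6.91.

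SLC60A2 was called lower at 48 h, and that call turns on 1 array. With CCL it read 4.10 in set 1 and 6.40 in set 2, against 6.79, 6.86 and 7.14 in untreated cells. The difference was -1.68 ± 0.43 (limma adjusted p = 0.0232, 2 CCL and 3 untreated arrays). The 2 CCL arrays had an SD of 1.62, and the standard error comes from the spread over all 29 arrays. Without CCL set 1 the difference was -0.53 (adjusted p = 1.00), and without CCL set 2 it was -2.83 (adjusted p = 1.8e-05). The call was also lost without untreated set 2 (-1.72, adjusted p = 0.0629) or set 3 (-1.58, adjusted p = 0.0789).

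At 12 h SLC60A2 read 6.25, 6.39 and 6.23 with CCL and 6.79, 6.84 and 6.86 without. This difference of -0.54 ± 0.38 was not called in the model of all arrays, but it was where only the 6 arrays of 12 h were fitted, among which both arms varied little (SD 0.09 with CCL and 0.04 without). At 6 h the CCL arrays at 6.64, 6.73 and 6.69 also lay below the untreated arrays at 6.93, 7.32 and 6.86 (-0.35 ± 0.38). At 18 h (0.01 ± 0.43) and 24 h (-0.37 ± 0.43) the arms overlapped. The call in the mean was lost without CCL 48 h set 1 (-0.36, adjusted p = 0.0843) or CCL 24 h set 1 (-0.48, adjusted p = 0.079). Without the 18 h time the mean was -0.74 (adjusted p = 0.0119).

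The sets offer a comparison of arrays that share a number. These are the same arrays that gave the calls above, so the counts describe them and are no separate evidence. The counts were not made for all genes. Of 12 pairs of CCL and untreated arrays of the same time and set, SLC66A1 was higher with CCL in 11, by -0.66 to 1.76 with a median of 0.77. SLC2A4RG was lower in 11 of 12 (-1.90 to 0.02, median -0.53) and SLC60A2 in 10 of 12 (-2.69 to 0.07, median -0.37). The 1 pair in which SLC66A1 was lower was that of 6 h set 1. After quantile normalization the counts were 11, 11 and 12.

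**Figure D3:**
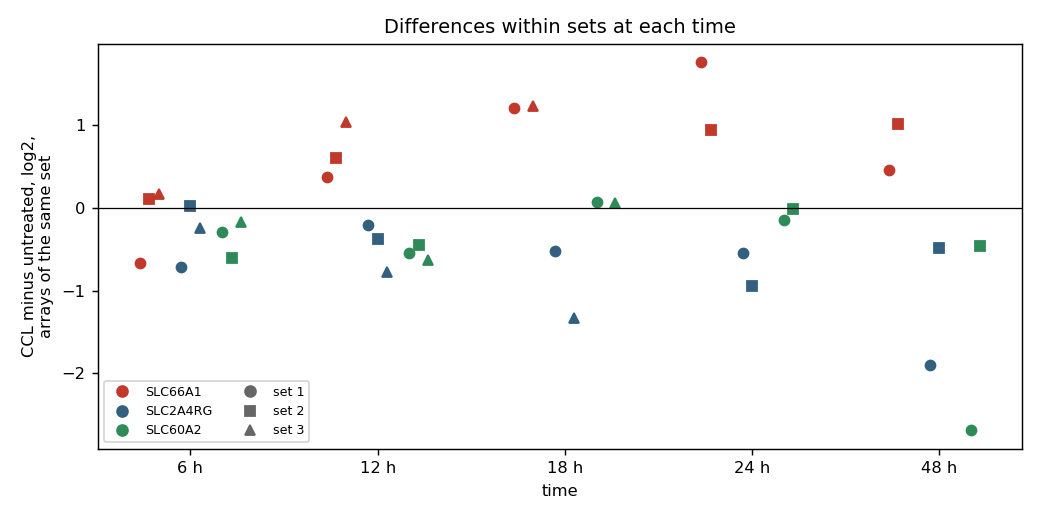
Difference of log2 values, CCL minus untreated, between arrays of the same time and set, for SLC66A1 (red), SLC2A4RG (blue) and SLC60A2 (green); marker shapes are sets. All SLC66A1 differences from 12 h on lie above 0, and the lowest point of all is SLC60A2 at 48 h in set 1 (-2.69).

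The other member classed with carriers of amino acids, SLC38A12, was not called. Nor were SLC66A2 and SLC25A15, which belong to other classes. SLC66A2, a PQ-loop relative of SLC66A1, changed by -0.07 in the mean (95% interval -0.29 to 0.15). SLC38A12, placed by its number with the carriers of neutral amino acids, had a mean difference of 0.10 (-0.12 to 0.32). At 18 h its values were 7.47, 7.57 and 8.01 with CCL and 7.42 and 7.24 without, apart but by 0.35 ± 0.25, which is less than the shift of all genes. SLC25A15, which exchanges ornithine and citrulline across the inner mitochondrial membrane for the urea cycle, had a mean difference of -0.16 (-0.42 to 0.10). Its lowest differences were -0.45 ± 0.27 at 12 h and -0.44 ± 0.30 at 24 h. At 12 h CCL set 3 read 4.281, against 5.438 and 5.435 in CCL sets 1 and 2.

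SLC49A4 encodes a protein of the lysosomal membrane. It lay lower with CCL without overlap at 6 h (-0.28 ± 0.26) and 12 h (-0.46 ± 0.26). At 12 h CCL set 3 read 7.225, against 7.97 and 8.06 in CCL sets 1 and 2. At 18 h the difference was 0.31 ± 0.29 on deposited values and -0.07 after quantile normalization. The mean difference of SLC49A4 was -0.17 (95% interval -0.42 to 0.09). Its relative SLC49A3, above 5 on 2 arrays, had a mean difference of -0.03 (-0.32 to 0.26). SLC33A2, a relative of the acetyl-CoA carrier of the endoplasmic reticulum, had a difference below 0 at each time (-0.45 to -0.03), with 24 h turning to 0.02 after quantile normalization, and a mean of -0.22 (-0.52 to 0.08). It lay above 5 on 2 of 13 CCL arrays and 9 of 16 untreated arrays. None of these 3 was called at any time.

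A further 5 members belong to the major facilitator superfamily and were known under MFSD or TMEM names. SLC67A2 had the highest mean difference of any member not called, 0.24 (95% interval -0.04 to 0.53). At 18 h it read 5.44, 5.60 and 6.18 with CCL, against 4.16 and 5.41 in untreated sets 1 and 3, without overlap (0.95 ± 0.32, adjusted p = 0.0528). SLC68A1 read 5.02, 5.22 and 5.23 with CCL and 3.92 and 5.04 without at 18 h (0.68 ± 0.26, adjusted p = 0.0751), where the groups overlapped, and its mean difference was 0.02. The median difference of all genes at 18 h was 0.41. After quantile normalization SLC67A2 differed by 0.49 (limma adjusted p = 0.232) and SLC68A1 by 0.17 (limma adjusted p = 0.674) at that time. In both genes untreated set 1 was the array that stood low at 18 h. Without the other untreated array of 18 h, set 3, both were called at that time, and without set 1 neither was. SLC67A2 was also called there without CCL set 1.

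SLC71A1 and SLC71A2 are close relatives, and male mice that lack the counterpart of SLC71A1 are infertile. Their mean differences were 0.10 (95% interval -0.12 to 0.32) and -0.03 (-0.26 to 0.21). Both were highest at 18 h, by 0.43 and 0.46, and lowest at 48 h, by -0.19 and -0.50, times at which all genes were shifted in the same direction. SLC75A1, whose product exports organic anions, had a mean difference of 0.14 (-0.07 to 0.34). On deposited values it lay between -0.01 and 0.28 at the 5 times. After quantile normalization it was -0.31 at 18 h and 0.43 at 48 h. At 48 h its CCL arrays lay above its untreated arrays by 0.17 ± 0.24. The non-coding SLC9A3-OT1 was lower by 0.29 ± 0.11 in the mean, not called (adjusted p = 0.0677), and called after quantile normalization (-0.29, adjusted p = 0.0494).

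**Figure D4:**
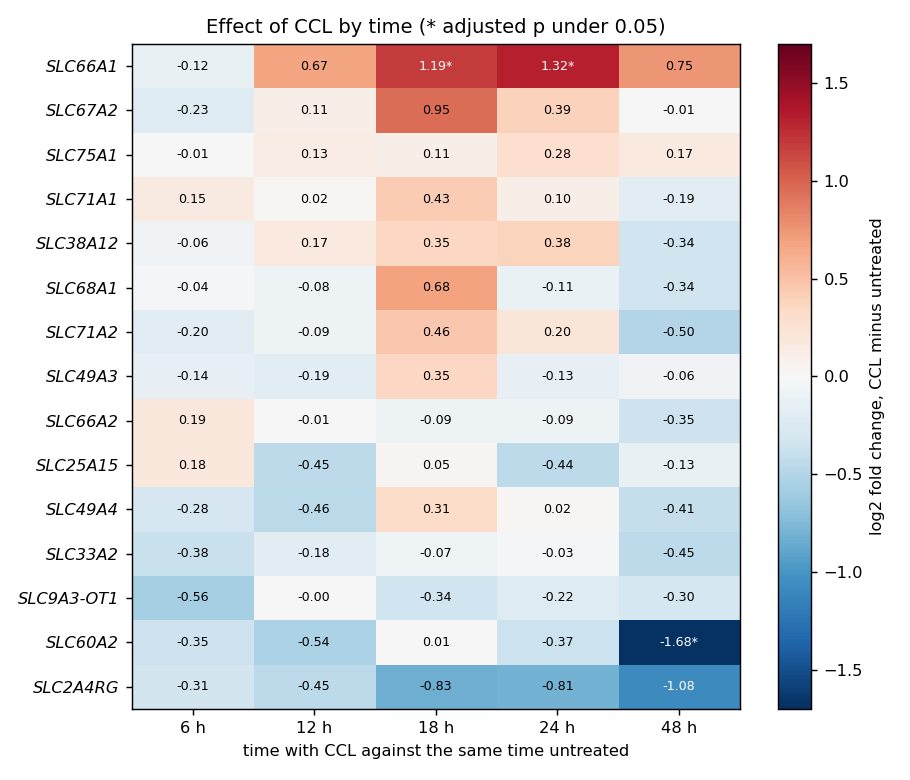
Log2 fold change, CCL minus untreated, for each of the 15 genes (rows, ordered by the mean over 5 times) at each time (columns), with an asterisk where the adjusted p was under 0.05. The 3 asterisks are SLC66A1 at 18 h (1.19) and 24 h (1.32) and SLC60A2 at 48 h (-1.68), and the 18 h column is redder and the 48 h column bluer than the rest.

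Counted by time, limma called 0 of the 15 genes at 6 h, where 0.306% of all genes were called, and 1 had an unadjusted p under 0.05. The count was also 0 at 12 h, against 1.24% of all genes, again with 1 at an unadjusted p under 0.05. It was 1 at 18 h (12.5% of all genes), 1 at 24 h (3.02%) and 1 at 48 h (6.56%). Groups that did not overlap, called or not, were seen for 3, 4, 5, 1 and 5 members at 6, 12, 18, 24 and 48 h, against 20%, 33.2%, 35.1%, 19.3% and 39.8% of all genes. The median of the members was -0.14, -0.08, 0.31, -0.03 and -0.34 at these times, and that of all genes was -0.06, -0.06, 0.41, 0.04 and -0.26. On deposited values the median of the members lay below that of all genes at each time. After quantile normalization it did so at the other times but not at 12 h (-0.0044 against -0.0047).

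The sign of 6 of the 15 members at 18 h and of 4 at 48 h depends on the scaling. At 18 h, 11 of 15 were above 0 on deposited values and 5 after quantile normalization. At 48 h, 2 were above 0 on deposited values and 6 after it. In the mean over the 5 times the count was 6 under both, with 0 changes of sign. After quantile normalization 1 member was called at 18 h (SLC2A4RG), against 5.18% of all genes, 2 at 48 h (12.4%) and 4 in the mean (35.4%). SLC66A1 and SLC2A4RG kept their sign under both scalings at all 5 times, and SLC60A2 at 4, its 0.01 at 18 h becoming -0.39.

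**Figure D5:**
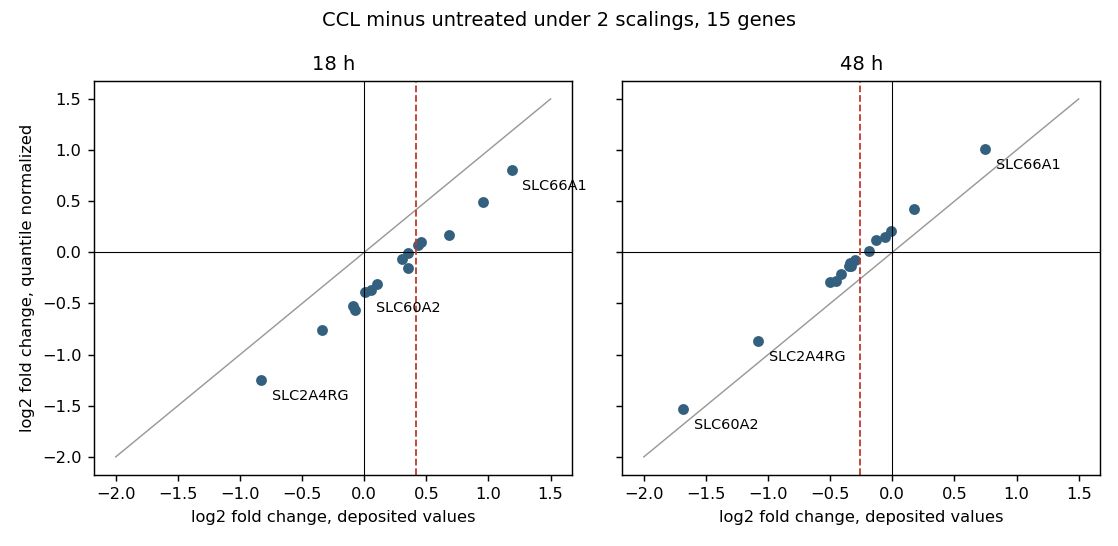
Log2 fold change, CCL minus untreated, of the 15 genes on deposited values (horizontal) and after quantile normalization (vertical) at 18 h and 48 h; the grey line marks equal values and the dashed line the median of all genes on deposited values (0.41 and -0.26). Points lie below the grey line at 18 h and above it at 48 h, with SLC66A1 highest in both.

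Limma's F-test asked if the 5 times differ in their CCL effect. It called 0 of the 15 genes, and 1 of all 6529 (0.0153%). The lowest adjusted p was 0.45, shared by SLC66A1, SLC60A2 and SLC68A1, and SLC66A1 alone had an unadjusted p under 0.05 (0.00261). The rise of SLC66A1 at 18 h and 24 h is therefore not shown to differ from its change at 6 h. In untreated cells, 48 h against 6 h, limma called 0 members and 0 had an unadjusted p under 0.05 (0.0153% of all genes called). Their differences ran from -0.19 for SLC66A1 to 0.34 for SLC33A2. Over the 6 untreated times the group means of SLC66A1 lay between 5.78 and 6.15, while those of SLC67A2 ran from 4.79 at 18 h to 5.80.

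The 19 symbols below the level comprised 5 protein-coding genes, SLC25A2, SLC51A, SLC60A1, SLC61A1 and SLC66A3, and 14 antisense, divergent or other non-coding RNA genes or pseudogenes. SLC51A, a subunit of the bile acid exporter of the basolateral membrane, did not pass 3.66 on any array. SLC60A1, a relative of SLC60A2, did not pass 4.77, and SLC25A2, a relative of SLC25A15, did not pass 3.96.

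Partner proteins and carriers with names of other form were counted from a list of 38 genes. It included MFSD10, MFSD14B and MFSD5, older names of SLC75A1, SLC71A2 and SLC61A1, which are counted above under their SLC symbols. Of the 38, 15 were tested under the listed names. In the mean over the 5 times 3 of these 15 (20%) fell and 0 rose, against 24.6% of all genes called in either direction, and their median was -0.07. SFXN2, a mitochondrial sideroflexin, fell by 0.96 ± 0.14 (limma adjusted p = 1.14e-05) and was also called lower at 18 h (-0.995, limma adjusted p = 0.0428) and 48 h (-1.62). Its relative SFXN4 was called higher at 18 h (0.77 ± 0.26, limma adjusted p = 0.0492) and not after quantile normalization (0.35, adjusted p = 0.238). MPC2, a subunit of the mitochondrial pyruvate carrier, fell by 0.37 ± 0.11, and FLVCR1, of the family later numbered SLC49, by 0.41 ± 0.14. BSG, the chaperone of lactate carriers, was not called (0.10 ± 0.10). Of 4 tested SLC genes whose symbols the rule does not match, chosen after the probe table was seen, SLC51B rose by 1.15 ± 0.18 in the mean (limma adjusted p = 3.2e-05), and SLC35D4, SLC35F6 and SLC9D1 were not called. In untreated cells SLC51B at 48 h exceeded 6 h by 1.08 ± 0.37, not called. SLC51B encodes the partner subunit of SLC51A, so 1 subunit of that exporter rose while the other lay below the level on all arrays.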

How the data were processed

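The 29 arrays carry log2 expression for 53617 probe sets, as deposited. Per the submitters' processing notes the authors used RMA in Affymetrix Expression Console 1.1. Further steps and the genome build are not given in the sources used here. The probe table named 16098 probe sets (14884 genes), and the other 37519 were not used here. Where a gene had several probe sets, the one with the highest mean was kept. Genes over log2 5 on 2 or more arrays entered the tests.

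Limma 3.58.1 in R 4.3.3 fitted a mean for each of the 11 groups to all arrays (18 residual degrees of freedom). The procedure was also run on simulated data with independent noise and no shift of whole arrays. That run therefore cannot show how the calls fare under the shifts seen here. Contrasts were CCL against untreated at 5 times, their mean, an F-test between times, and untreated 48 h against 6 h. The p-values reflect spread among these arrays, which may be technical. The naming rule takes the called members of each contrast, the 4 with the lowest F-test p, and listed well-known carriers, 0 of which were tested; the uncalled members are described because the group is small. SLC2A4RG was moved out of the sugar carriers after the annotation was seen. The members and lists were chosen with earlier results of these data known.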

Additional observations from a re-analysis of the deposited data

How the results depend on the processing

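The 8 counts of called members were recomputed with quantile normalization, no filter, a filter at log2 6 (9 members left), the mean of probe sets, set as a replicate block, the 2 compared groups alone, and each array left out. With the first of these the count was 2 at 48 h (SLC60A2 and SLC66A1), against 1. At 18 h it stayed at 1, but the gene was SLC2A4RG in place of SLC66A1. No filter, the stricter filter and the mean of probe sets changed none of the 8 counts. With set as a replicate block the count was 3 at 18 h (SLC2A4RG, SLC66A1 and SLC67A2) and 2 at 48 h (SLC2A4RG and SLC60A2), and 4 in the mean, SLC9A3-OT1 joining the 3. Residuals of same-numbered arrays correlated above 0.1 in 9 of 12 pairs (-0.0657 to 0.444) and best with their own number in 7 of 12. Each CCL array had only 2 or 3 untreated arrays of its time to match. The labels do not say what a set shares, so the block was kept as an alternative. A shared set effect is neither established nor dismissed. Fitting only the compared arrays gave 1 at 12 h (SLC60A2) and 0 at 18 h, 24 h and 48 h, where fewer arrays bear on the spread. SLC66A1 then had an adjusted p of 0.147 at 18 h and 0.12 at 24 h, and SLC60A2 of 0.299 at 48 h.

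With arrays left out, the count ran from 0 to 3 at 18 h, 0 to 1 at 24 h, 0 to 5 at 48 h, 2 to 5 in the mean and 0 to 3 in the F-test, and stayed at 0 at 6 h, at 12 h and for untreated cells. The 5 at 48 h came without CCL set 2. Where this left 1 array in a group, it was assumed to vary like the other groups, and the cause of these shifts was not tested. The F-test called SLC66A1, SLC67A2 and SLC68A1 without untreated 18 h set 3, and SLC60A2 and SLC66A1 without CCL 48 h set 2. Leaving out the 18 h time, an alternative chosen after seeing the data, gave 3 in the mean. In the comparisons where a member was called, its fold change kept its sign under every alternative run. Other than at 18 h under quantile normalization (-0.15 against 0.31), the median of the members moved by less than the average within-group SD over the members (0.280). The number of arrays, 2 or 3 per group, limits what a single time can show, and signal over background was not used here.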
